A study of Homo sapiens with 6 samples.

Results

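The genes described here encode the protein subunits of the mitochondrial ribosome. They were taken as every row of the deposited count table whose symbol begins with MRPL or MRPS followed by a digit, which gave 78 genes of 14034. RNA-seq was done in JHH-4, an established human hepatocellular carcinoma line, in 3 control libraries of wild-type cells and in 3 libraries of cells that overexpressed hsa-miR-885-5p from a plasmid carrying the primary microRNA. The labels name the 3 libraries of each group technical replicates, and p-values here reflect only how far such libraries differ. No label says whether control cells carried an empty plasmid, so effects of plasmid and microRNA cannot be told apart. The microRNA gene itself was not analysed here, and its overexpression was therefore not checked.

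The mitochondrial ribosome translates the few messenger RNAs encoded in mitochondrial DNA, which specify core subunits of the respiratory chain and of ATP synthase. All of its proteins are encoded in the nucleus, made on cytosolic ribosomes and imported into the organelle. Its large subunit holds the peptidyl transferase centre and its small subunit decodes the messenger RNA. Some of its proteins descend from those of bacterial ribosomes, and others were added in mitochondria and have no bacterial counterpart.

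The table held 51 genes of the large subunit, 30 with a bacterial homolog and 21 specific to mitochondria, and 26 of the small subunit, 16 with a bacterial homolog and 10 specific to mitochondria. Symbols did not always match the subunit: MRPS30 and MRPS18A encode proteins of the large subunit and are counted there. MRPS18A and MRPS18B are counted as specific to mitochondria, although they are paralogs of MRPS18C, which is counted with a bacterial homolog. MRPS36 is now assigned to the 2-oxoglutarate dehydrogenase complex and is not counted with either subunit. All 78 genes passed the filter on low counts, and the smallest count of a member in any library was 436.

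Total counts ran from 46382314 to 56409821 per library, and the first principal component, which separated the groups, held 72.5% of the variance. Control library 3 stood apart from the other libraries on the second component. Of the 5 epithelial markers, KRT8, KRT18 and KRT19 were in the table, with a summed level of 3340 to 3440 CPM (counts scaled to the TMM-adjusted library size) in control and 2810 to 2910 CPM in miR-885-5p libraries. Among the markers of other cell types, CD68 stood at 116 to 138 CPM over both groups, the 2 fibroblast markers found summed to 12.7 to 15.2 CPM in control and 23.5 to 23.9 CPM in miR-885-5p libraries, and PECAM1 was at or below 1.70 CPM. The part of these markers in the results below was not tested.

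The microRNA and its sites in these genes are shown first because the comparison turns on it. The mature sequence is given from RefSeq on GRCh38.p14 (chromosome 3, 10394531 to 10394552, minus strand), with the seed, bases 2 to 8, in capitals. Sites are stretches of the longest annotated 3′ UTR in GENCODE 29 on GRCh38, written as DNA, with the match to the seed in capitals. The 8mer adds an A after the 7mer-m8 match GTAATGG.
hsa-miR-885-5p: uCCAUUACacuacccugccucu
MRPS10 8mer: ccagggttactGTAATGGAatttatgatct
MRPS25 7mer-m8, first: aaggcctgtctGTAATGGcatctgaatgt
MRPS25 7mer-m8, second: ggcattaaaatGTAATGGcaaaaccaata

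Of the 78 genes, MRPS10 held an 8mer and MRPS25 held 7mer-m8 sites, so 2 of 78 had a site of these kinds. Over all 12308 genes with a 3′ UTR, 2.54% had an 8mer and 5.48% a 7mer-m8 as their strongest site. The MRPS10 site lies at 42207670 to 42207677 of chromosome 6, on the minus strand, and starts at UTR base 612, where the UTR is 1488 bases long. The MRPS25 sites lie at 15049592 to 15049598 and 15048957 to 15048963 of chromosome 3, also on the minus strand, in a UTR of 3923 bases. MRPL35, MRPL42 and MRPS27 had the weaker 7mer-A1 match TAATGGA, and the remaining 73 genes had none of these matches. The UTRs of the 78 genes had a median length of 494 bases.

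The comparison asked which mitochondrial ribosomal protein genes differ when miR-885-5p is raised. Of the 78 genes, 30 fell and 6 rose (edgeR quasi-likelihood test, adjusted p under 0.05 over all genes), and 42 did not pass. In bulk RNA, fewer cells of a kind and less RNA per cell cannot be told apart. Over all genes tested, 26.5% were lower, 26.3% higher and 52.9% either, against 38.5% lower and 7.69% higher of these genes. With scaling to library totals 23 fell (29.5%) and 10 rose (12.8%), and the split of all genes moved too, to 22.3% lower and 31.0% higher. The median log2 fold change was -0.09, against 0.00 for all genes, and 54 of 78 values were below 0. These values come from the same libraries and are not replicates. By library, the median log2 difference of the 78 genes from their control mean was -0.008, -0.039 and 0.028 in control. With miR-885-5p it was -0.078, -0.145 and -0.053, so control 2 and miR-885-5p library 3 lay close together. Leaving out 1 library at a time gave 24 to 31 genes lower and 4 to 9 higher.

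The changes were small. Called members had a median absolute log2 fold change of 0.28, against 0.39 for all called genes. At least 1.2-fold, 20 genes were lower and 1 higher, 26.9% of these genes against 38.9% of all genes. At least 1.5-fold, 1 of 78 genes was called, against 15.1% of all genes, and no member reached 2-fold. A test against a 1.5-fold change called 0 members in either direction, also at an unadjusted p under 0.05 (edgeR), where 2.92% of all genes were lower by it. The 3 values of the groups did not overlap for 36 genes, 31 with miR-885-5p below control and 5 above, where 30.3% and 30.2% of all genes did so, 60.5% in all. By the authors' deposited table, p was under 0.05 with a lower value for 33 members (28.8% of all genes) and with a higher one for 9 (28.8%), and 0 of the members called here had the opposite sign there.

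**Figure D1:**
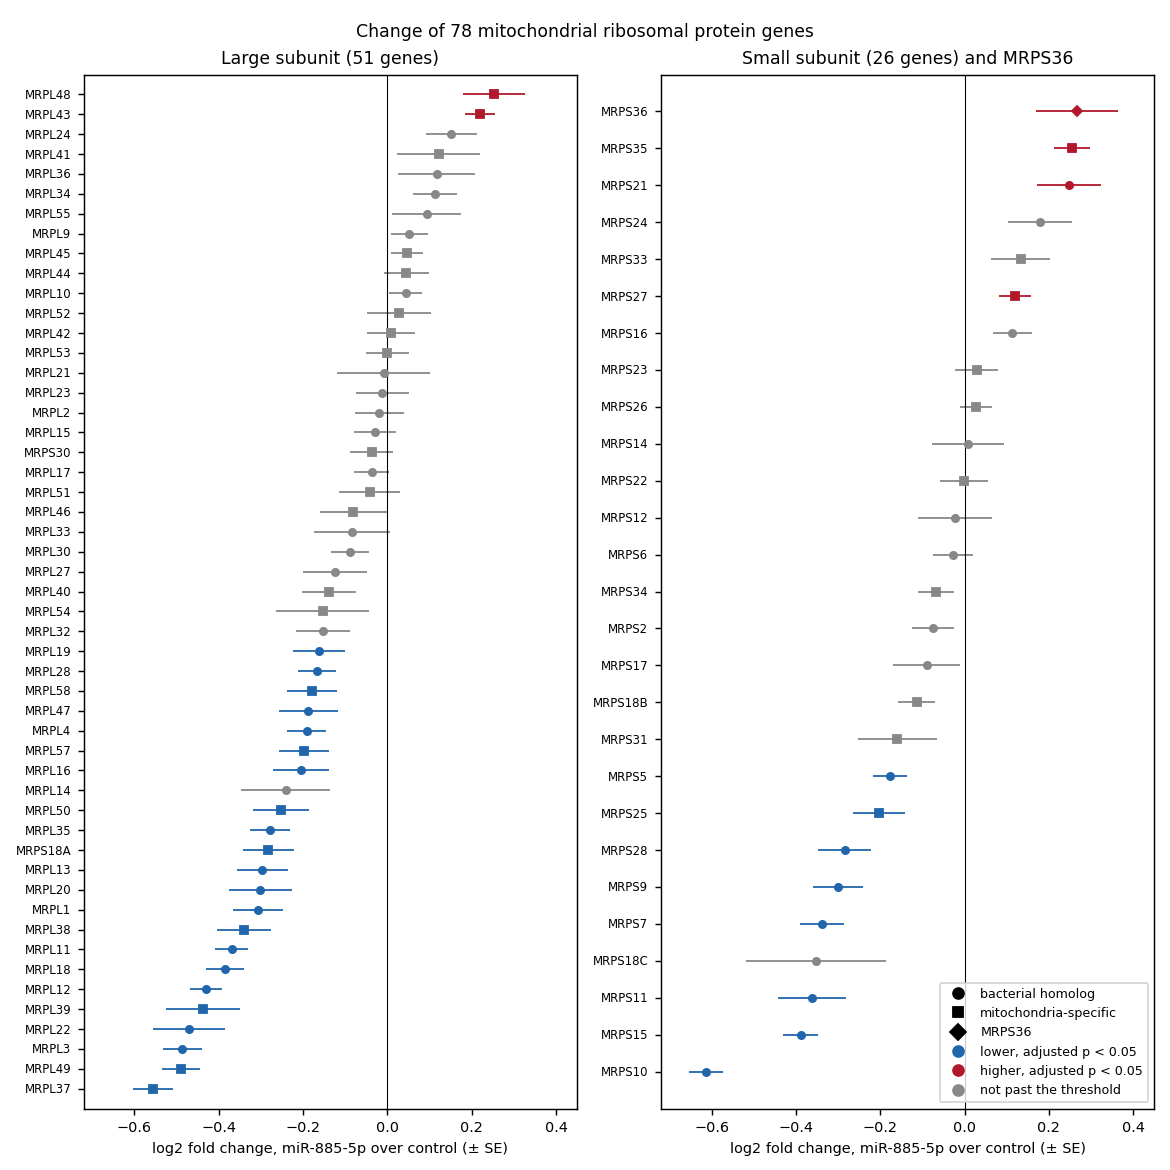
Log2 fold change (miR-885-5p over control) of each of the 78 genes with its standard error, ordered by size, for the large subunit (left) and for the small subunit with MRPS36 (right). Circles have a bacterial homolog and squares are specific to mitochondria; blue is lower, red higher and grey not past an adjusted p of 0.05. The lowest value is that of MRPS10 at -0.61 and the highest that of MRPS36 at 0.27.

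MRPS10 had the largest fall. It encodes a small subunit protein of the head domain (uS10m) and is the gene with the 8mer shown above; it lies on chromosome 6 from 42206801 to 42217865 (GRCh38). Its TMM-scaled CPM were 74.5, 74.3 and 74.4 in control and 48.5, 48.7 and 48.7 with miR-885-5p, in the order of library number as in all such lists here. The groups were far apart and the libraries of a group nearly equal. The log2 fold change was -0.61 (SE 0.04, adjusted p = 2.02e-06 in edgeR), so its level fell by 34.6%. MRPS25, a small subunit protein specific to mitochondria and the carrier of 7mer-m8 sites, had 38.6, 35.2 and 39.6 CPM in control and 34.3, 31.9 and 32.3 CPM with miR-885-5p. These groups did not overlap but lay close together (log2 fold change -0.20, SE 0.06, adjusted p = 0.0191 in edgeR), and the call was lost with scaling to library totals, on leaving out control 1, and on leaving out miR-885-5p library 2 or 3. Of the genes with the 7mer-A1 match, MRPL35 fell (log2 fold change -0.28, SE 0.05), MRPS27 rose (0.12, SE 0.04) and MRPL42 did not pass (0.01, SE 0.06). Whether any of these sites bears on the changes was not tested. The share that fell among all genes with an 8mer was not computed.

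In the large subunit 22 of 51 genes fell (43.1%) and 2 rose (3.92%), against 26.5% and 26.3% of all genes. Their median log2 fold change was -0.14. Among the 30 with a bacterial homolog 14 fell (46.7%) and 0 rose in edgeR, where 1, MRPL24, had an unadjusted p under 0.05. DESeq2 called 1 higher, and limma-voom 0. Among the 21 specific to mitochondria 8 fell (38.1%) and 2 rose (9.52%). With scaling to library totals 16 large subunit genes were lower and 4 higher, since MRPL24 and MRPL34, both with a bacterial homolog, passed as higher (adjusted p = 0.0177 and 0.0243 in edgeR).

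MRPL37, a protein specific to the mitochondrial large subunit, had 199, 212 and 187 CPM in control and 135, 138 and 134 CPM with miR-885-5p. Every miR-885-5p library lay below every control library (log2 fold change -0.56, SE 0.05, adjusted p = 9.42e-06 in edgeR). MRPL37 lies on the short arm of chromosome 1 (54184041 to 54225464). MRPL49, also specific to mitochondria, had 94.8, 94.8 and 102 CPM in control and 68.0, 69.0 and 70.9 CPM with miR-885-5p. Its groups were likewise apart (log2 fold change -0.49, SE 0.04, adjusted p = 1.52e-05 in edgeR; chromosome 11, 65122183 to 65127371).

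MRPL3 encodes uL3m, a protein close to the peptidyl transferase centre. It had 131, 139 and 127 CPM in control and 91.2, 95.0 and 97.3 CPM with miR-885-5p, so the groups were well apart (log2 fold change -0.49, SE 0.05, adjusted p = 1.95e-05 in edgeR; chromosome 3, 131462212 to 131502983). MRPL22, which encodes uL22m of the polypeptide exit tunnel, had 30.1, 30.5 and 34.1 CPM in control and 24.5, 20.0 and 23.8 CPM with miR-885-5p. MRPL39, whose protein resembles threonyl-tRNA synthetase, had 19.1, 17.3 and 20.5 CPM in control and 15.1, 12.9 and 14.0 CPM with miR-885-5p. Neither gene's groups overlapped, though their libraries were more widely spread than those of MRPL3, and their log2 fold changes were -0.47 (SE 0.09) and -0.44 (SE 0.09).

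The genes for proteins of the stalk, which recruits translation factors to the large subunit, did not move alike in RNA level. MRPL12, the stalk protein bL12m, had 298, 288 and 305 CPM in control and 215, 226 and 219 CPM with miR-885-5p. The groups were apart by far more than their spread (log2 fold change -0.43, SE 0.04, adjusted p = 1.19e-05 in edgeR). MRPL11, the uL11m protein at the stalk base, went from 89.5, 87.9 and 89.9 CPM to 70.3, 68.0 and 68.6 CPM, with the groups again apart (log2 fold change -0.37, SE 0.04). MRPL10, the uL10m protein that anchors bL12m, had 132, 137 and 134 CPM in control and 141, 141 and 133 CPM with miR-885-5p. Its groups overlapped and it did not pass (log2 fold change 0.04, SE 0.04, adjusted p = 0.379 in edgeR). MRPL1, the protein of the mobile L1 stalk on the other side of the subunit, fell (log2 fold change -0.31, SE 0.06).

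Other large subunit genes that fell were MRPL18 at -0.38, MRPL38 at -0.34, MRPL20 at -0.30, MRPL13 at -0.30, MRPS18A at -0.28, MRPL35 at -0.28 and MRPL50 at -0.25 on the log2 scale. MRPL16, MRPL57, MRPL4, MRPL47, MRPL58, MRPL28 and MRPL19 fell by 0.20 to 0.16 on that scale. MRPL58, a peptidyl-tRNA hydrolase that can release stalled chains, went from 43.4, 42.0 and 47.7 CPM to 38.0, 39.7 and 39.8 CPM. Its groups came close without overlapping, it fell by 0.18 on the log2 scale (adjusted p = 0.0291 in edgeR), and its call ended in 7 of 15 other settings. MRPL19 and MRPL47 had adjusted p = 0.0481 and 0.0482 in edgeR, and their calls ended in 10 and 8 of the 15.

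Of the 27 large subunit genes that did not pass, MRPL32, whose protein is matured by the m-AAA protease, had 37.6, 39.4 and 36.6 CPM in control and 32.6, 32.7 and 36.8 CPM with miR-885-5p. Its groups overlapped through miR-885-5p library 3 (log2 fold change -0.15, SE 0.06). MRPL33, a protein with a bacterial homolog, had 33.6, 30.2 and 38.2 CPM in control and 34.1, 29.3 and 32.8 CPM with miR-885-5p, which overlapped (log2 fold change -0.08, SE 0.09). MRPS30, also known as an apoptosis-related protein, had 55.0, 59.4 and 56.5 CPM in control and 53.4, 57.6 and 55.4 CPM with miR-885-5p. These groups overlapped (log2 fold change -0.04, SE 0.05). MRPL14, MRPL27, MRPL30, MRPL40, MRPL46 and MRPL54 had log2 fold changes from -0.24 to -0.08, and MRPL24, MRPL34, MRPL36, MRPL41 and MRPL55 from 0.09 to 0.15. MRPL2, MRPL15, MRPL17, MRPL21, MRPL23, MRPL51 and MRPL53 had values from -0.04 to 0.00. MRPL44, MRPL45, MRPL9, MRPL42 and MRPL52 had values from 0.01 to 0.05; MRPL45 anchors the ribosome at the inner membrane.

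Both large subunit genes that rose are specific to mitochondria. MRPL43 had 91.9, 90.6 and 92.4 CPM in control and 106, 106 and 108 CPM with miR-885-5p. The libraries of a group were close to each other and the groups apart (log2 fold change 0.22, SE 0.04, adjusted p = 5.75e-04 in edgeR; chromosome 10, 100969458 to 100987515). MRPL48, a protein of the central protuberance, had 16.4, 14.2 and 15.4 CPM in control and 18.4, 18.0 and 18.5 CPM with miR-885-5p. Its groups did not overlap (log2 fold change 0.25, SE 0.07, adjusted p = 0.0151 in edgeR).

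In the small subunit 8 of 26 genes fell and 3 rose, with a median log2 fold change of -0.07. Of the 16 with a bacterial homolog 7 fell and 1 rose, and of the 10 specific to mitochondria 1 fell and 2 rose. Over both subunits 21 of 46 genes with a bacterial homolog fell and 1 rose, against 9 and 4 of 31 specific to mitochondria; the difference between these classes was not tested. With scaling to library totals 17 were lower and 5 higher of the 46 with a bacterial homolog. Of the 31 specific to mitochondria 6 were lower and 4 higher. The rises with a bacterial homolog thus went from 1 to 5, and those specific to mitochondria stayed at 4. The 7 that fell besides MRPS25 were MRPS10, MRPS15 at -0.39, MRPS11 at -0.36, MRPS7 at -0.34, MRPS9 at -0.30, MRPS28 at -0.28 and MRPS5 at -0.18. MRPS7 and MRPS9, like MRPS10, sit in the head of the subunit, and MRPS11 and MRPS15 in its platform. MRPS7 went from 124, 123 and 139 CPM to 105, 101 and 99.2 CPM, so that its groups did not overlap. MRPS12, the uS12m protein of the decoding centre, did not pass (log2 fold change -0.02, SE 0.09), and neither did MRPS2 (-0.07, SE 0.05) or MRPS14 (0.01, SE 0.08). MRPS16 and MRPS22, whose mutations cause combined defects of oxidative phosphorylation, had values of 0.11 (SE 0.05) and 0.00 (SE 0.06) and did not pass. MRPS6, MRPS17, MRPS23, MRPS26 and MRPS33 had values from -0.09 to 0.13 and did not pass either.

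The 3 small subunit genes that rose were MRPS35, MRPS21 and MRPS27. MRPS35 had 73.5, 72.4 and 76.6 CPM in control and 89.3, 90.6 and 85.7 CPM with miR-885-5p, with every treated library above every control one (log2 fold change 0.25, SE 0.04, adjusted p = 7.39e-04 in edgeR). MRPS27, an RNA-binding protein with pentatricopeptide repeats, went from 193, 194 and 184 CPM to 205, 204 and 212 CPM (log2 fold change 0.12, SE 0.04, adjusted p = 0.0236 in edgeR). That rise was small, and its call was lost in the fit with a replicate block, on leaving out control 1 and on leaving out miR-885-5p library 3. MRPS21, the bS21m protein, had 43.0, 39.9 and 48.2 CPM in control and 55.1, 52.4 and 48.2 CPM with miR-885-5p. Its groups met at control library 3 and miR-885-5p library 3 (log2 fold change 0.25, SE 0.08, adjusted p = 0.0204 in edgeR), and the call ended without any of control libraries 1 and 2 and miR-885-5p libraries 1 and 2. MRPS21 has 8 pseudogenes of its name in GENCODE 29, the most of any of these genes. Such pseudogenes exist for 34 of the 78 genes, MRPS10 and MRPL37 among them. How the authors counted reads shared with pseudogenes is unknown here.

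MRPS18A, MRPS18B and MRPS18C are paralogs whose proteins take different places in the ribosome. MRPS18A, in the large subunit, had 43.2, 48.0 and 42.5 CPM in control and 35.9, 37.5 and 36.5 CPM with miR-885-5p, and fell (log2 fold change -0.28, SE 0.06, adjusted p = 0.00291 in edgeR). MRPS18B had 99.3, 93.5 and 101 CPM in control and 93.6, 88.9 and 89.1 CPM with miR-885-5p, and just missed the threshold (log2 fold change -0.11, SE 0.04, adjusted p = 0.0524 in edgeR). MRPS18C had 21.9, 20.4 and 27.0 CPM in control and 13.4, 18.7 and 22.2 CPM with miR-885-5p. The libraries of its treated group were widely spread and overlapped with control (log2 fold change -0.35, SE 0.17, adjusted p = 0.102 in edgeR). It passed as lower when miR-885-5p library 3 was left out (-0.52 on the log2 scale, adjusted p = 0.0245 in edgeR) and in the fit with a replicate block (-0.37, adjusted p = 0.0294). The differences between the paralogs were not tested.

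MRPS36, the gene outside the ribosome, had 16.5, 15.5 and 18.8 CPM in control and 22.7, 18.4 and 20.2 CPM with miR-885-5p. Control library 3 lay above miR-885-5p library 2, so the groups overlapped (log2 fold change 0.27, SE 0.10, adjusted p = 0.0416 in edgeR). The call was lost on leaving out either control 1 or 2, and likewise either miR-885-5p library 1 or 3.

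**Figure D2:**
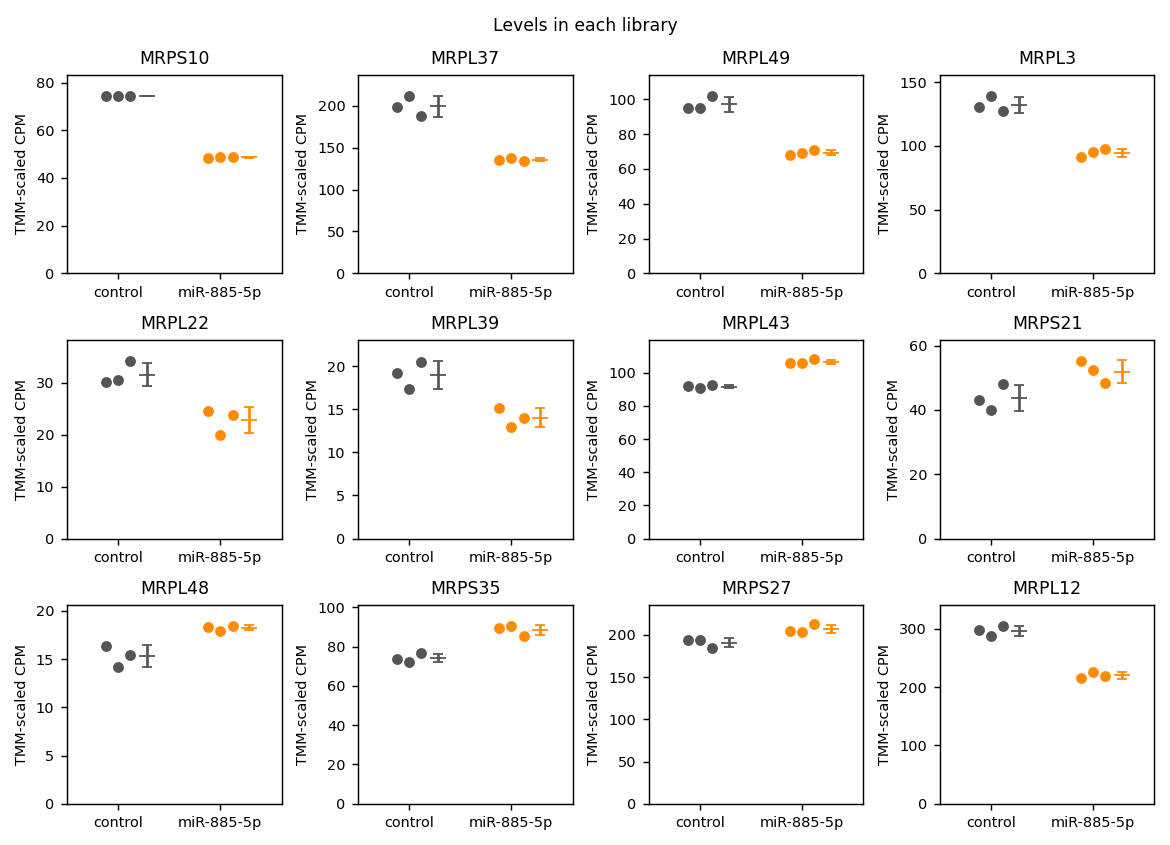
TMM-scaled CPM of 12 genes in each of the 3 control (grey) and 3 miR-885-5p (orange) libraries, with mean and SD beside the points and each vertical axis starting at 0. The 6 genes with the largest fall and MRPL12 lie lower in every miR-885-5p library, MRPS10 from 74.4 to 48.7 CPM on average, while MRPL43, MRPS21, MRPL48, MRPS35 and MRPS27 lie slightly higher.

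Levels of different genes were compared by the authors' FPKM, which divide by a length. How that length was set is unknown here, and ranks and ratios by FPKM depend on it. The FPKM did not follow counts alone. MRPL11 had 87.9 and 89.9 CPM but 52.6 and 79.3 FPKM in control libraries 2 and 3. MRPL12 had the highest mean over the 6 libraries, at 230 FPKM, followed by MRPS24 at 108 and MRPS34 at 107 FPKM. The lowest means were those of MRPS31 at 6.39, MRPL50 at 6.41 and MRPL42 at 7.29 FPKM. MRPS24 had 93.9, 89.2 and 114 FPKM in control and 119, 122 and 109 FPKM with miR-885-5p, which overlap, and it did not pass on counts (log2 fold change 0.18, SE 0.08). MRPS34 ran from 102 to 112 FPKM over both groups, with a log2 fold change of -0.07 (SE 0.04) on counts. Neither MRPS31 (-0.16, SE 0.09) nor MRPL42 passed, while MRPL50 fell. The change did not follow the level: across the 78 genes, which share libraries and are not replicates, log2 mean FPKM and log2 fold change had Pearson r = 0.06. Among the 39 genes with the higher FPKM 16 fell and 3 rose, and among the 39 with the lower FPKM 14 fell and 3 rose.

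Summed over the 78 genes, these mRNAs took 0.503, 0.493 and 0.523% of all counts in control libraries and 0.482, 0.479 and 0.478% in miR-885-5p libraries. The shares of the groups did not overlap, and control library 3, which stood apart from the others, had the highest. Large subunit genes took 0.320, 0.313 and 0.333% in control and 0.296, 0.295 and 0.296% with miR-885-5p. Small subunit genes took 0.182, 0.179 and 0.189% in control and 0.184, 0.182 and 0.180% with miR-885-5p, so the small subunit's shares overlapped. The mean FPKM of large over small subunit genes was 1.06, 1.05 and 1.08 in control and 0.996, 0.985 and 1.02 with miR-885-5p. These sums are given without a test. Genes with many counts weigh most in them. The large subunit genes with the highest mean CPM in control, MRPL12 and MRPL37, fell from 297 to 220 and from 199 to 136. In the small subunit that gene was MRPS27, which rose from 190 to 207 CPM. The part of single genes in the sums was not computed.

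**Figure D3:**
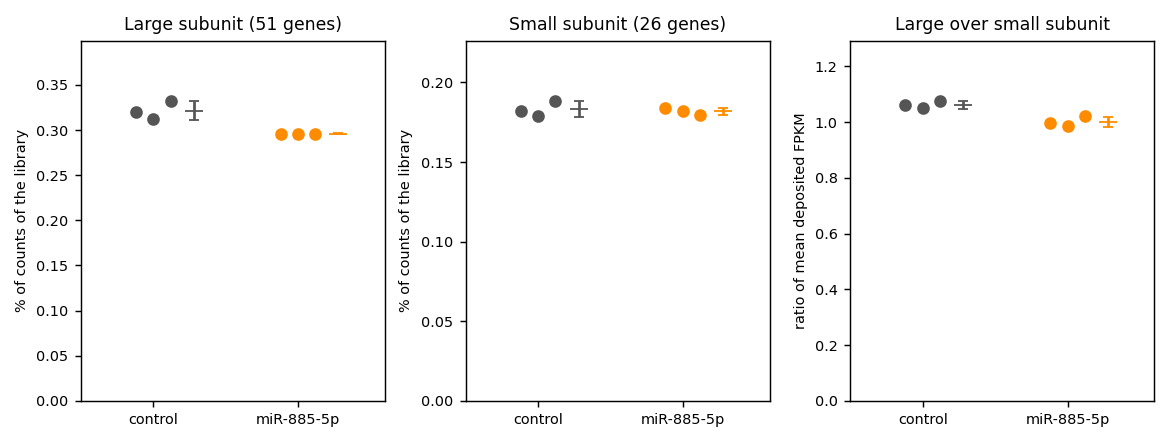
Percent of each library's counts in large (left) and small (middle) subunit genes and the ratio of their mean deposited FPKM (right), for 3 control (grey) and 3 miR-885-5p (orange) libraries with mean and SD, axes starting at 0. Large subunit shares lie at 0.313 to 0.333% in control and at 0.295 to 0.296% with miR-885-5p, while small subunit shares overlap.

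The 78 genes lie on 21 chromosomes. On the short arm of chromosome 1, where 55.8% of 694 tested genes were lower, lie MRPL37, MRPS15 and MRPL20, and all 3 fell. MRPS15, in the platform of the small subunit, went from 89.9, 90.8 and 92.9 CPM to 72.3, 68.3 and 68.4 CPM, and MRPL20, a large subunit protein with a bacterial homolog, from 79.7, 75.2 and 89.0 CPM to 60.2, 66.5 and 71.2 CPM. Neither gene's groups overlapped. Without these 3 genes 27 fell and 6 rose, and the median log2 fold change was -0.08.

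Many genes for mitochondrial proteins share a start region with a gene on the opposite strand. In GENCODE 29, 27 of the 78 genes had such a protein-coding neighbour in the table with its start within 1 kb, which made 26 pairs. The neighbour passed in 15 of the 26 pairs, with MRPS11 taken as the neighbour of MRPL46, where 52.9% of all genes passed. Both genes passed in 7 pairs, in the same direction in 5 and in opposite directions in 2. Whether paired genes change together was not tested. MRPL43 rose with TWNK, the mitochondrial DNA helicase gene (log2 fold change 0.36), MRPL18 fell with the chaperonin gene TCP1 (-0.23) and MRPL57 with SKA3, a kinetochore gene (-0.62). MRPS7 fell with GGA3 (-0.23) and MRPL50 with ZNF189 (-0.38). MRPL49 fell while FAU, which encodes a cytosolic ribosomal protein, rose (0.25), and MRPL47 fell while NDUFB5, a complex I subunit gene, rose (0.50). MRPS11 and MRPL46 are neighbours of each other, and MRPS11 fell while MRPL46 had a value of -0.08 (SE 0.08). MRPL36 had 0.12 (SE 0.09) beside NDUFS6, another complex I subunit gene, which fell by 0.46 on the log2 scale. The 5′ ends overlapped in 12 of the 26 pairs, and if strand was not used in counting, which no source states, reads there cannot be separated. The limit is wider than these pairs. Of the 78 genes, 38 overlap a gene on the other strand. Another 17, some of them the same genes, overlap a gene on their own strand, where strand would not separate reads.

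**Figure D4:**
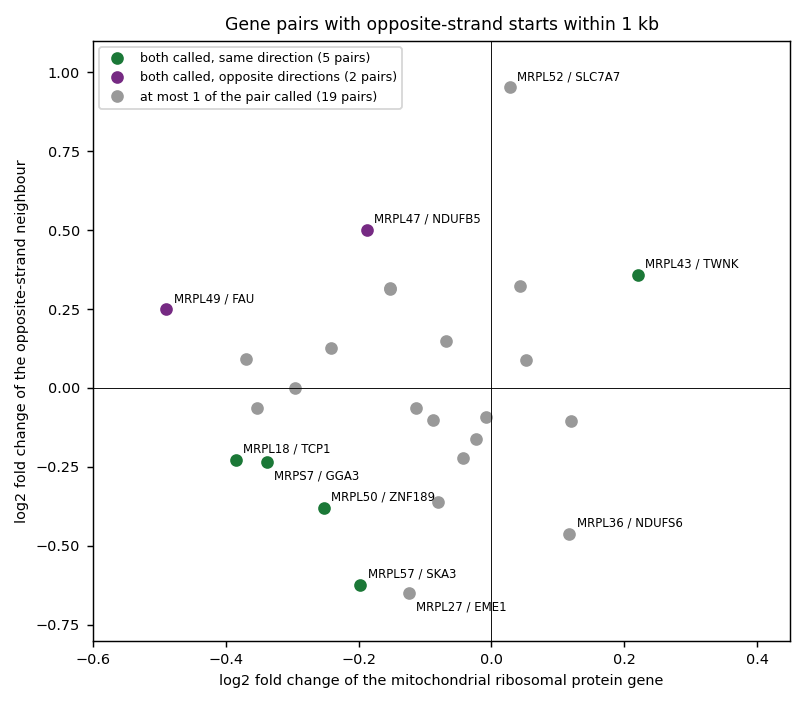
Log2 fold change of the opposite-strand neighbour against that of the mitochondrial ribosomal protein gene for 26 pairs with starts within 1 kb. In 5 pairs both passed in the same direction (green), in 2 in opposite directions (purple), and in 19 at most 1 gene passed (grey).

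Promoters of 69 of the 78 genes were found in the RefSeq table on GRCh38.p14, as windows from 250 bases before to 50 after a start; several starts of a gene were pooled. CCGGAAG, the core bound by ETS factors such as GABPA, was found on either strand in 30 of the 69 (43.5%), against 22.7% of 10103 tested genes and 12.2% of 27305 listed genes. The palindromic site of NRF1 was found in 1 (1.45%, against 2.66% of tested and 1.52% of listed genes). CACGTG, the E-box that MYC and USF factors can bind, was found in 9 (13.0%, against 12.7% of tested and 8.78% of listed genes). Of the 30 genes with CCGGAAG 10 fell and 3 rose, and of the 39 without it 17 fell and 2 rose. Of the 9 with CACGTG 3 fell, MRPL37, MRPL49 and MRPL22, and 0 rose in edgeR, also at an unadjusted p under 0.05 and in DESeq2 and limma-voom. Of the 60 without it 24 fell (40.0%) and 5 rose (8.33%), against 33.3% lower of the 9 with it. A link of either motif to the changes was not tested. Stretches of the promoters of the gene with the largest fall and of the 3 that fell and hold CACGTG are shown, with the match in capitals and each written 5′ to 3′ on the strand of the gene.
MRPS10 with CCGGAAG (chr6:42217827-42217933, minus strand): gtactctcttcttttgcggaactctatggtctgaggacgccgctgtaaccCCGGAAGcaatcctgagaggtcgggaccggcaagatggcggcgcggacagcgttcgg
MRPL37 with CACGTG (chr1:54199947-54200052, plus strand): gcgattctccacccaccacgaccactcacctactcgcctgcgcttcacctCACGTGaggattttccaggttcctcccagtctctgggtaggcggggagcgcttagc
MRPL49 with CACGTG (chr11:65121933-65121993, plus strand): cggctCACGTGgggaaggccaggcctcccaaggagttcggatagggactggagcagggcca
MRPL22 with CACGTG (chr5:154940847-154940952, plus strand): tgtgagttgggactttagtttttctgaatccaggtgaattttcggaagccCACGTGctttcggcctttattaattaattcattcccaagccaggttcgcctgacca

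Other genes of mitochondrial translation were taken from lists chosen with earlier results known. Shares of a list are given as lower, then higher, and stand against 26.5% lower and 26.3% higher of all genes. Of 5 further mitoribosomal proteins whose symbols differ, 3 fell and 1 rose (60.0 and 20.0%). AURKAIP1, a small subunit protein whose gene also lies on the short arm of chromosome 1, fell from 155, 153 and 169 CPM to 124, 131 and 123 CPM (log2 fold change -0.34, SE 0.05). GADD45GIP1, of the large subunit, and PTCD3, of the small subunit, fell by 0.24 and 0.14 on the log2 scale. DAP3, a GTP-binding protein of the small subunit, rose by 0.15, and CHCHD1 had a value of 0.06 (SE 0.12).

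Of 26 genes of ribosome assembly and ribosomal RNA modification 7 fell and 3 rose (26.9 and 11.5%, against 26.5 and 26.3% of all genes). RPUSD4, a pseudouridine synthase that acts on the large ribosomal RNA, went from 45.3, 45.2 and 47.5 CPM to 25.0, 25.0 and 24.1 CPM. This was a larger fall than that of any MRPL or MRPS gene (log2 fold change -0.90, SE 0.05, adjusted p = 8.49e-07 in edgeR). RBFA and ERAL1, which help mature the small subunit, fell by 0.61 and 0.35. Of 16 translation factors 2 fell and 2 rose (12.5% each). TACO1, the activator of COX1 translation, fell by 0.40 and C12orf65, a release factor relative, by 0.43. LRPPRC, which stabilises mitochondrial mRNAs, rose by 0.15 and OXA1L, the membrane insertase, by 0.19.

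Of 20 genes that charge mitochondrial tRNAs 5 fell and 4 rose (25.0 and 20.0%, against 26.5 and 26.3% of all genes). IARS2, the isoleucyl enzyme, rose from 186, 179 and 200 CPM to 252, 264 and 250 CPM (log2 fold change 0.44, SE 0.05). EARS2, the glutamyl enzyme, fell by 0.26 on the log2 scale. Of 16 genes of mitochondrial transcription, replication and RNA processing 3 fell and 2 rose (18.8 and 12.5%). TWNK was at 0.36, the polymerase gene POLRMT at 0.23 and the single-stranded DNA binding protein gene SSBP1 at -0.24. Of 17 import and protease genes 7 fell and 3 rose (41.2 and 17.6%). The chaperone genes HSPA9 and HSPD1 were at -0.34 and -0.27 and the import pore gene TOMM40 at -0.39.

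Among 9 regulators of mitochondrial biogenesis 4 fell and 2 rose (44.4 and 22.2%, against 26.5 and 26.3% of all genes). PPARGC1A, the coactivator PGC-1alpha, rose from 15.6, 15.1 and 14.9 CPM to 22.8, 20.1 and 22.1 CPM (log2 fold change 0.51, SE 0.07), and ESRRA, an orphan receptor that it coactivates, rose by 0.47 (SE 0.11). PPARGC1B and PPRC1, of the same family as PPARGC1A, fell (log2 fold change -0.58, SE 0.14, and -0.19, SE 0.07). GABPB1, the partner of GABPA, fell by 0.44 (SE 0.08) and MYC by 0.23 (SE 0.06). GABPA itself (0.12, SE 0.10), NRF1 (-0.09, SE 0.08) and YY1 (0.07, SE 0.04) did not pass. Of the 13 mRNAs encoded in mitochondrial DNA, the templates of this ribosome, 4 fell (30.8%) and 0 rose in edgeR. Also at an unadjusted p under 0.05, and in DESeq2 and limma-voom, 0 rose. MT-ND6 had 469, 525 and 419 CPM in control and 291, 260 and 284 CPM with miR-885-5p (log2 fold change -0.76, SE 0.08), MT-ND5 changed by -0.75 and MT-ND1 by -0.58. Together these 13 took 5.43, 6.37 and 4.45% of counts in control and 4.80, 4.46 and 4.83% with miR-885-5p, so the sums overlapped.

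Against other groups of genes for translation and mitochondria, the counts were as follows. Of 83 genes with symbols of cytosolic ribosomal proteins 59 rose (71.1%) and 4 fell (4.82%), with a median log2 fold change of 0.27. Of 80 nuclear genes of the respiratory chain and ATP synthase 11 rose (13.8%) and 22 fell (27.5%), with a median of 0.00. The differences between these groups and the mitochondrial ribosomal protein genes were not tested.

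**Figure D5:**
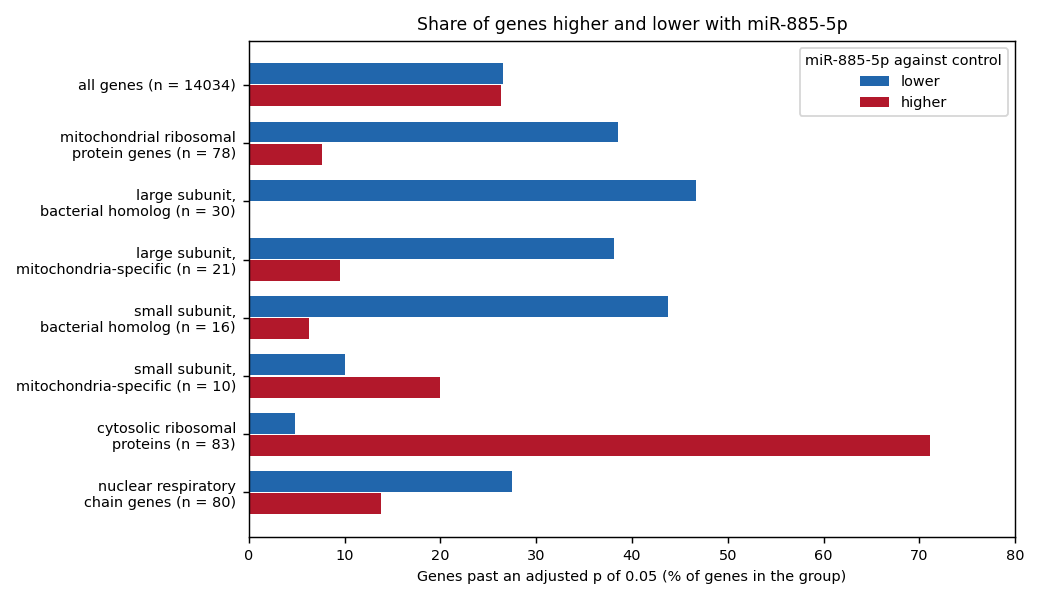
Percent of the genes in each group that were lower (blue) or higher (red) with miR-885-5p at an adjusted p of 0.05, with the number of genes in brackets. Mitochondrial ribosomal protein genes were lower in 38.5% and higher in 7.69%, all genes in 26.5% and 26.3%, and cytosolic ribosomal protein genes in 4.82% and 71.1%.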

How the data were processed

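RNA-seq of 6 libraries (3 control, 3 miR-885-5p; groups and numbers from the titles) was used. The deposited table holds a raw count per gene and library, per the file headers. It also holds FPKM computed by the authors, used here only to compare levels between genes. Per the file headers, each gene also has the authors' own log2 ratio and p-value, from an unnamed test. GRCh38, StringTie 2.2.1, HISAT2 2.0.4 and DESeq2 1.38.3 appear in the submitters' processing notes without a role; which tool counted, on what annotation and with what strand setting is unknown here. The table has 14034 rows, 1614 of them unnamed gene models.

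The test was the quasi-likelihood F test of edgeR 4.0.16 (R 4.3.3) on TMM-scaled counts; filterByExpr removed 0 rows. It used Benjamini-Hochberg adjustment over all rows and a threshold of 0.05. CPM are TMM-scaled. Fold changes above 0 on the log2 scale mean higher with miR-885-5p. Libraries of a group differed beyond sampling noise (chi-square per degree of freedom 7.95 to 40.5). Depth was 46382314 to 56409821 counts. Counts were simulated for this comparison over 14034 genes, of which 13834 were left unchanged, unlike the data, where 52.9% of genes passed. The test recovered 15 of 50 genes set to a 1.2-fold change and 35 of 50 set to 1.5. It recovered 39 of 50 set to 2 and all 50 set to 4, with 10 calls among the unchanged genes.

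Genes with full values were the 6 largest rises and falls among called members with groups that do not overlap (5 rises met this), the 3 highest and lowest by FPKM, paralogs, stalk proteins, MRPL32, MRPL33, MRPL58, symbols that do not match their subunit, carriers of seed sites, members on the short arm of chromosome 1 and 3 genes of each pathway list by adjusted p; others were chosen after their values were seen. Values of some genes under this rule, and of the liver markers, are not reported here. The members and lists were chosen with earlier results of these data known. Gene positions and UTRs came from GENCODE 29, and promoters and the microRNA from RefSeq. The short arm of chromosome 1 was taken as the tested genes before the widest gap between tested genes. Alternatives were 3 other scalings, DESeq2 1.42.0, limma-voom 3.58.1, 2 other filters, named genes alone, a replicate block, a 1.5-fold test, 3 other choices of members and leaving out each library.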

Additional observations from a re-analysis of the deposited data

How the results depend on the processing

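No pairing of libraries by the submitters' numbers was seen, though 3 libraries per group are too few to exclude one. Same-numbered libraries had correlations of deviations from -0.159 to -0.0671. Of the 6 libraries, 0 correlated best with its own number in the other group. With the replicate block 29 genes were lower and 5 higher, against 3366 and 3329 of all genes, and the members' median log2 fold change was -0.0908. The counts of members lower ran from 24 to 31 without 1 library and from 23 to 33 elsewhere, those of members higher from 4 to 9 and from 5 to 10, and the median from -0.121 to -0.0872 and from -0.0943 to -0.0415. Counts of all genes ran from 3101 to 3814 higher and from 3182 to 3864 lower without 1 library. Groups that do not overlap numbered 41 to 47 members without 1 library (52.6 to 60.3%), against 64.9 to 70.3% of all genes. Scaling to library totals gave 10 members higher. In the test against a 1.5-fold change 0 members were higher and 0 lower, also at an unadjusted p under 0.05, against 493 and 410 of all genes. Of 30 genes called lower 23 kept their call in all 15 settings other than the 1.5-fold test, as did 3 of 6 called higher. Calls lost by leaving out 1 library were those of MRPL16 (control 3, miR-885-5p 2 or 3), MRPL28 (miR-885-5p 2), MRPL57 (control 1, miR-885-5p 3), MRPL58 (any but control 2), MRPL47 (control 1 or 3, miR-885-5p 2 or 3) and MRPL19 (any but control 1), besides those given in the report. Of the 42 that did not pass, 32 passed in none of the 15, 16 of them with a sign change, and 10 passed in some: MRPL24 in 7, MRPS16 and MRPS24 in 3 each, MRPL14, MRPL32 and MRPS18C in 2 each, and MRPL34, MRPL41, MRPS18B and MRPS33 in 1 each. Those gained by leaving out 1 library were MRPL24 (control 1, miR-885-5p 2), MRPL14 and MRPS18B (control 2), MRPL32 (control 3, miR-885-5p 3), MRPL41, MRPS16 and MRPS24 (control 3), MRPS33 (control 1) and MRPS18C (miR-885-5p 3). The replicate block ended the calls of MRPL19, MRPL58 and MRPS27 and gave 1 to MRPS18C.

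Values near 0 changed sign in some settings, none past the threshold. With library totals they were MRPL15 0.0184, MRPL17 0.0106, MRPL2 0.0289, MRPL21 0.0385, MRPL23 0.0358, MRPL51 0.00506, MRPS12 0.0238, MRPS22 0.0461, MRPS30 0.0112 and MRPS6 0.0206. With upper-quartile scaling they were MRPL21 0.00414, MRPL23 0.00128 and MRPS22 0.0115, with limma-voom MRPL21 0.00494 and MRPL53 -3.28e-04, with DESeq2 MRPL53 -3.17e-04, and with DESeq2 size factors MRPL53 -2.28e-04. With a filter at 5 CPM they were MRPL21 0.00287 and MRPS22 0.00953, with the replicate block MRPL21 0.0075, and with named genes alone MRPS22 0.00346. Without 1 library at a time, the ranges that crossed 0 were CHCHD1 -0.0642 to 0.17, MRPL15 -0.0689 to 0.00151, MRPL2 -0.0529 to 0.0272, MRPL21 -0.117 to 0.152, MRPL23 -0.048 to 0.0344, MRPL33 -0.163 to 0.00813, MRPL42 -0.0266 to 0.052, MRPL51 -0.117 to 0.0511, MRPL52 -0.0472 to 0.109, MRPL53 -0.0196 to 0.0238, MRPS12 -0.116 to 0.099, MRPS14 -0.0371 to 0.0958, MRPS22 -0.0414 to 0.0224 and MRPS23 -0.00949 to 0.068. The cause was not tested. At a 1.2-fold change the simulation recovered 15 of 50 genes, so smaller changes may be missed at this number of libraries. The simulation left 13834 of 14034 genes unchanged, where 52.9% of all genes passed in the data, so its recovery may not carry over. Members with smaller changes did pass, such as MRPS27 at 0.12 on the log2 scale.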
